A study of Saccharomyces cerevisiae with 18 samples.

Results

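The 81 genes described here encode the proteins of the large (60S) subunit of the cytosolic ribosome of the budding yeast Saccharomyces cerevisiae. They were chosen by name from the 6612 transcripts of the table: RPL followed by a number and an optional A or B, or a stalk gene of the set RPP0, RPP1A, RPP1B, RPP2A and RPP2B. The mitochondrial MRPL genes and RPP1, which is an RNase P gene, were left out. The 81 genes encode 46 proteins, of which 35 are made from a pair of paralogs (A and B) and 11 from a gene without a paralog. The rule uses names alone and no measured value, though it was set with earlier results of these data known.

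Polyadenylated RNA was sequenced from 18 cultures of homozygous diploid strains, RM11 (of vineyard origin) and YJM975 (of clinical origin). Each strain was grown in biological triplicate in 5 mL of synthetic medium with a complete supplement and 2% glucose, 2% glycerol or 2% ethanol, and was snap-frozen while growing exponentially (OD600 of 0.5 to 1). The groups are thus RM11 in glucose, in glycerol and in ethanol and YJM975 in the same media, with 3 libraries each, and the series calls the strains parental and is about the heritability of complex traits. Levels were compared by strain within a medium, by medium within a strain, and by how far the strains differed in their response to a medium.

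The large subunit holds the peptidyl transferase centre, the tunnel through which the nascent protein leaves, and a flexible stalk that recruits translation factors. Budding yeast kept many of its ribosomal protein genes as duplicates after an ancient duplication of its genome, and the products of a pair are often the same or nearly the same protein. Transcription of these genes is tied to growth and nutrient signals through Rap1, Fhl1, Ifh1 and Sfp1, and many of the genes carry introns. Here 53 of the 81 genes have an intron within the coding sequence and 28 do not.

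How far the paralogs of a pair can be told apart depends on their sequences, so the coding sequences of 4 pairs on which the results turn are shown, read from the RefSeq R64 assembly of the laboratory strain S288C and not from the strains measured. Capitals mark the bases at which A and B differ. For RPL15, a protein of the core of the subunit, the window from base 555 to 614 of the coding sequence holds 10 differences.
RPL15A: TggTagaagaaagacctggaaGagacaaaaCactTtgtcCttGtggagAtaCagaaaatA
RPL15B: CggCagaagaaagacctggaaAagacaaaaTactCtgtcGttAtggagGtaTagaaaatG
For RPL14 the first 60 bases hold 7 differences.
RPL14A: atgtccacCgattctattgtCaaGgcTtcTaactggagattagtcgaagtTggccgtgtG
RPL14B: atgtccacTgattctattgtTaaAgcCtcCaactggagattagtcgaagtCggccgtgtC
For RPL35, which lies at the exit of the tunnel, the first 60 bases hold 2 differences.
RPL35A: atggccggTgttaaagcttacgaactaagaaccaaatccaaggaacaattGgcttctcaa
RPL35B: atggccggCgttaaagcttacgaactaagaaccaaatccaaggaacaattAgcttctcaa
For RPL41, a peptide of 25 residues and the smallest protein of the ribosome, the whole coding sequences of 78 bases differ at 1 base.
RPL41A: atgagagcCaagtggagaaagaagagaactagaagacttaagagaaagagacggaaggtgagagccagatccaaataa
RPL41B: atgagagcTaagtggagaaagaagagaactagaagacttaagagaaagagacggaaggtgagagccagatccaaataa
The coding sequence of RPL29, which has no paralog and showed the widest strain difference below, is given whole, in lower case as there is no partner to compare.
RPL29: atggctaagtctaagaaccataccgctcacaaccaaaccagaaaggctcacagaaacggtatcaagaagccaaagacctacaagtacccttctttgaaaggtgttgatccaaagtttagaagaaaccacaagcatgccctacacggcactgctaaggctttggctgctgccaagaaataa

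Over all 35 pairs the coding sequences of A and B shared 68.5% to 99.4% of their bases, with a median of 93.2%, and 11 pairs shared 95% or more. In 12 pairs the encoded proteins were identical. The levels come from kallisto, per the submitters' processing notes, a program that divides reads among similar transcripts by likelihood, so the split between A and B is less certain for the most similar pairs (RPL1, RPL35, RPL4 and RPL41 among them) than the sum of both.

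The 81 genes were among the abundant messages of the cell. All passed the minimum of 1 TPM on average, where TPM is a level per length scaled to a total of 1000000 in every library, and 54 of them were among the 500 transcripts with the highest means over the libraries. The values in single libraries ran from 8.81 TPM, for RPL8A in YJM975 in glucose, to 3035 TPM, for RPL38 in RM11 in glycerol. The highest means over the 18 libraries were those of RPL38 (1831 TPM), RPL41B (1794 TPM), RPL39 (1569 TPM), RPL36B (1542 TPM) and RPL41A (1402 TPM). RPL39 lines the exit tunnel, and RPL38 and RPL36 are small surface proteins. The 5 lowest were RPL15B at 49.8 TPM, RPL9A at 59.3 TPM, RPL22B at 106 TPM, RPL1A at 108 TPM and RPL18B at 139 TPM. The log2 level fell with coding length over the 81 genes (Pearson r = -0.55, Spearman rho = -0.52), a description over genes that share the same libraries.

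Together the 81 genes took a share of all TPM whose ranges over the libraries of the 6 groups did not overlap. TPM is relative, so a rise of other transcripts lowers this share and each level in it. In RM11 the share was 3.28 ± 0.156% in glucose, 6.28 ± 0.161% in glycerol and 4.99 ± 0.0924% in ethanol (SD, n = 3 in this and every other group). In YJM975 it was 1.00 ± 0.00539% in glucose, 2.83 ± 0.0803% in glycerol and 5.39 ± 0.264% in ethanol. No library of the glucose or glycerol groups of one strain overlapped those of the other, with YJM975 below RM11, and in ethanol every YJM975 library lay above every RM11 library. With the 50 most abundant transcripts left out, the strains overlapped in ethanol, at 8.40% to 9.31% in YJM975 and 8.38% to 8.47% in RM11, as did RM11 in glucose and YJM975 in glycerol. The order of the media also differed, with glycerol highest in RM11 and ethanol highest in YJM975.

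**Figure D1:**
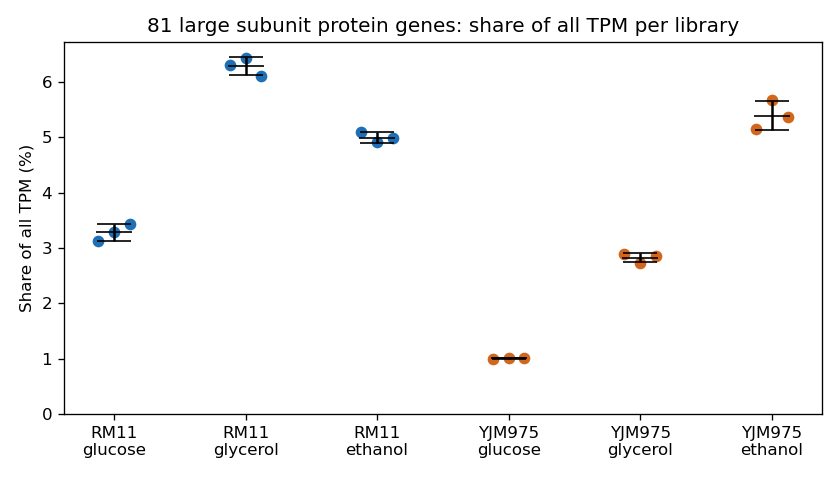
Share of all TPM taken by the 81 large subunit genes in each library (vertical axis, percent) for the 6 groups of strain and medium; points are libraries, and the long bar and whiskers are the mean and SD of 3. YJM975 in glucose lies lowest at 1.00% and RM11 in glycerol highest at 6.28%.

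Before the comparisons, the medium labels were checked with genes of carbon metabolism. HXK2 encodes a hexokinase that glucose induces, and under the glucose label it reached 2.30 ± 0.0468 TPM (RM11) and 5.08 ± 0.534 TPM (YJM975), beside 71.3 ± 6.78 TPM for RM11 under the glycerol label. ICL1, the isocitrate lyase that glucose represses, stood at 1791 ± 107 and 401 ± 36.0 TPM in the libraries labelled glucose, beside 511 ± 16.0 and 464 ± 43.4 TPM for glycerol and 1626 ± 106 and 1870.1 ± 71.8 TPM for ethanol (RM11 first in each). FBP1, the fructose-1,6-bisphosphatase of gluconeogenesis, stood at 809 ± 29.3 and 353 ± 24.0 TPM for glucose, 157 ± 2.74 and 63.0 ± 5.46 TPM for glycerol and 249.9 ± 9.10 and 198 ± 8.19 TPM for ethanol. In YJM975 HXK2 stood at 1.84 ± 0.316 TPM in glycerol and 5.26 ± 0.697 TPM in ethanol, and in RM11 at 1.79 ± 0.547 TPM in ethanol. As textbook regulation has it, FBP1 in both strains and HXK2 and ICL1 in RM11 went against the glucose label. In YJM975 ICL1 was lowest under that label, and HXK2 was above its glycerol level but overlapped its ethanol level. Glucose, glycerol and ethanol below are therefore the media as labelled. The glucose libraries of both strains also carry another sequencing run string in their labels than the glycerol and ethanol libraries, so run and medium cannot be told apart in comparisons with glucose, while strain comparisons within a medium share a run string. In bulk libraries, fewer cells that hold a message and less of it per cell cannot be told apart either.

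In glucose, YJM975 held less message than RM11 from nearly every large subunit gene. Of the 81 genes 79 were lower in YJM975 and none was higher by limma with Benjamini-Hochberg adjustment, against 60.7% of all 6309 genes tested that were called lower and 22.5% called higher. At a limit of 2-fold or more 74 were lower, and no share of all genes at that limit is given, here or below. The median log2 difference of the members was -1.96, and that of all genes was -0.38. The differences were uneven, from more than 10-fold to none, and the 4 genes that differed least, RPL15B, RPL35B, RPL9A and RPL14B, were copies whose partners differed by more than 2-fold.

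The widest difference was that of RPL29, a small protein of the subunit surface that yeast can live without. Its levels in glucose were 724, 630.4 and 568 TPM in the RM11 libraries, against 47.8, 46.5 and 64.9 TPM in those of YJM975, a log2 difference of -3.58 ± 0.13 (SE; limma adjusted p = 4.38e-14). The strains did not overlap, and the highest YJM975 library was far below the lowest RM11 library. RPL22A, a nonessential protein, stood at 159, 154 and 163 TPM in RM11 against 10.7, 13 and 18.5 TPM in YJM975 (-3.44 ± 0.13). RPL5, which carries the 5S rRNA into the subunit together with RPL11, stood at 378, 378 and 383 TPM against 32.1, 31.6 and 39.5 TPM (-3.43 ± 0.07). In all of these the groups were fully separated.

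At the other end, RPL15B and RPL35B did not pass the test in glucose. RPL15B was at 48.1, 51.7 and 49.9 TPM in the RM11 libraries, against 55.8, 53.5 and 53.8 TPM in those of YJM975, a difference of 0.12 ± 0.06 (limma adjusted p = 0.0676), although every YJM975 library lay above every RM11 library. RPL35B was at 298, 318 and 322 TPM and 265, 292 and 301 TPM, with overlap (-0.13 ± 0.08, limma adjusted p = 0.126). Their partners were lower in YJM975 in every library. RPL15A fell to 25.3, 25.8 and 35.2 TPM in YJM975 from 297, 307 and 312 TPM in RM11, and RPL35A to 155, 175 and 162 TPM from 672, 753 and 767 TPM. RPL9A and RPL14B were the least lowered of the called genes, at -0.52 ± 0.07 and -0.54 ± 0.06.

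In glycerol all 81 genes were lower in YJM975 by limma, against 70.1% of all genes tested called lower and 16.2% higher. Of the 81 genes 61 were lower by 2-fold or more, a limit for which no share of all genes is given. The differences were smaller and more even than in glucose, with a median of -1.26, where the median of all genes was -0.59. RPL29 again differed most, with 1959.6, 1910.2 and 1839.9 TPM in the RM11 libraries, against 314, 253 and 295 TPM in those of YJM975 (-2.73 ± 0.13, limma adjusted p = 1.27e-12). The next were minor paralogs. RPL9A stood at 134, 139 and 131 TPM in the RM11 libraries, against 25.8, 28.9 and 24.2 TPM in those of YJM975 (-2.32 ± 0.07), RPL6B differed by -2.29 ± 0.11 and RPL33B by -2.15 ± 0.09. RPL41B differed least (-0.37 ± 0.13, limma adjusted p = 0.0152), followed by RPL10 at -0.46 ± 0.07, a protein that joins the subunit late and is needed for its union with the small subunit. With each library centred on its median, 69 genes were lower and 2 higher in YJM975 in glycerol.

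In ethanol the strains were closer, and most of the genes that passed the test were higher in YJM975. Of the 81 genes 43 were higher in YJM975 and 4 lower by limma, against 26.8% of all genes tested called higher and 21.2% called lower, and 34 did not pass. The median difference was 0.17, where that of all genes was 0.03. None of the 43 was higher by 2-fold. The largest were RPL22B (0.66 ± 0.07), RPL15B (0.63 ± 0.06), RPL10 (0.47 ± 0.07) and RPL7B (0.47 ± 0.07). RPL22B stood at 112, 101 and 112 TPM in the RM11 libraries, against 172, 176 and 168 TPM in those of YJM975, with no overlap. The count of 43 came to 24 with median centring and to 27 without the second RM11 ethanol library.

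RPL29 was the exception in ethanol. It stood at 1433, 1654 and 1676 TPM in the RM11 libraries, against 421, 576 and 460.5 TPM in those of YJM975, a log2 difference of -1.72 ± 0.13 (limma adjusted p = 8.13e-09), and the strains were fully separated. It was the member with the largest deficit in YJM975 in each of the media, and the only member lower by 2-fold or more in ethanol. The other members called lower there differed little, RPL18B by -0.27 ± 0.06, RPL43B by -0.20 ± 0.07 and RPP2A by -0.15 ± 0.06. The calls for RPL43B and RPP2A were lost when single ethanol libraries were left out. Whether the transcript of YJM975 differs in sequence from that used to count RPL29 was not tested, as no sequence of that strain was used here.

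**Figure D2:**
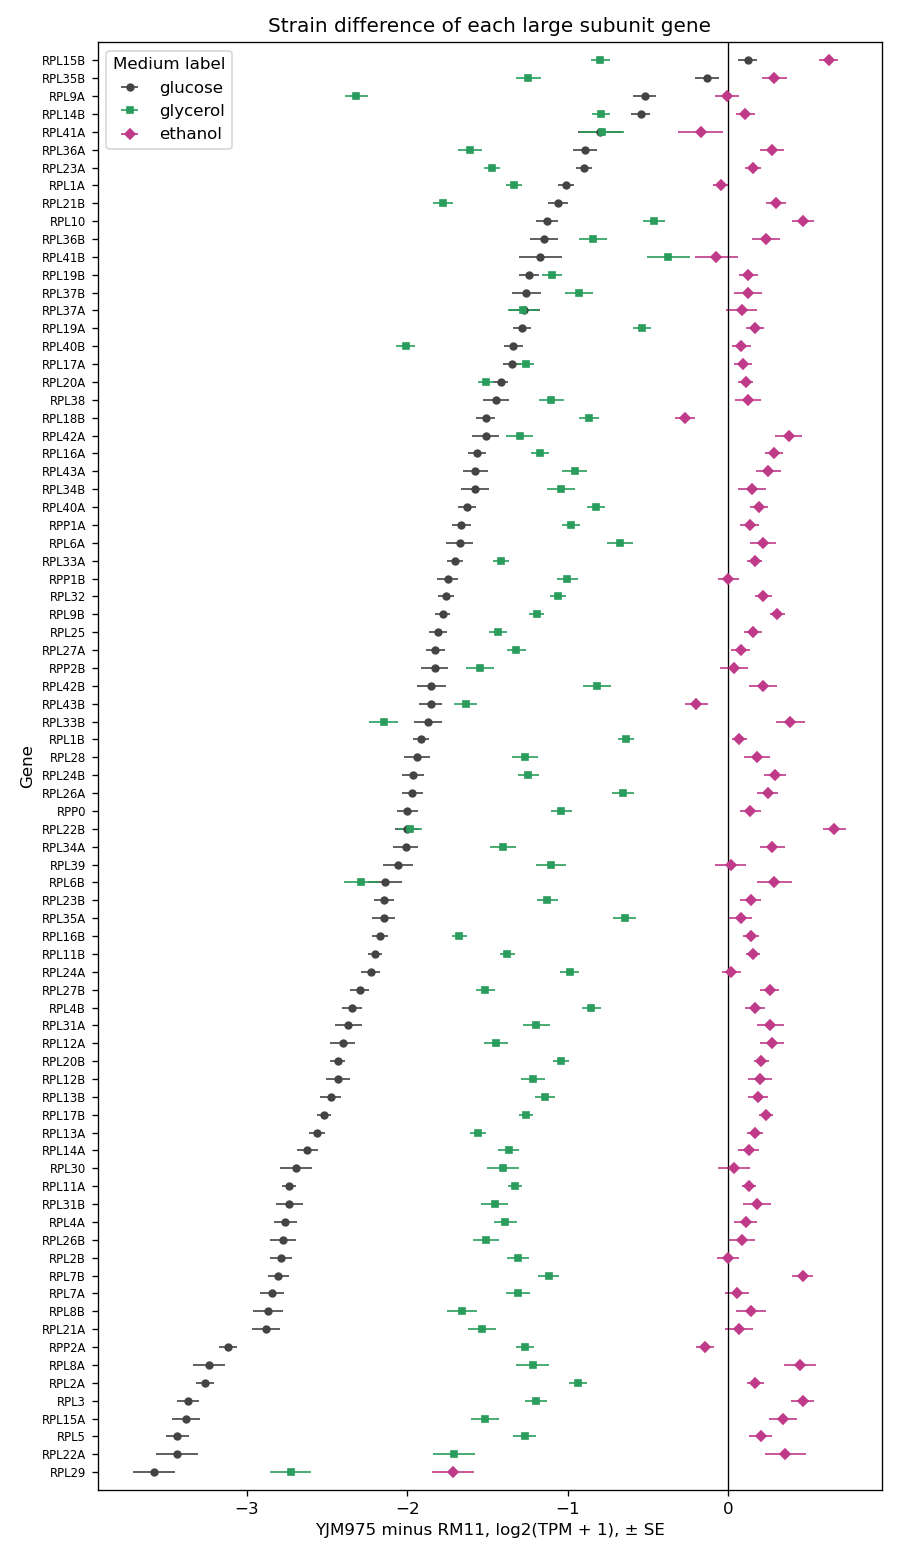
Log2 difference between YJM975 and RM11 for 80 of the 81 genes (horizontal axis, log2(TPM + 1), with SE) in glucose, glycerol and ethanol, one gene per row. Values in ethanol lie near 0 except that of RPL29 at -1.72, and those in glucose reach from -3.58 to 0.12.

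Averaged over the media, 80 of the 81 genes were lower in YJM975 by limma, against 69.3% of all genes tested called lower and 15.4% higher, with a median of -1.03 and -0.33 for all genes. RPL15B did not pass (-0.02 ± 0.03, limma adjusted p = 0.692). RPL29 led at -2.67 ± 0.07, followed by RPL22A at -1.60 ± 0.08. This average mixes glucose and glycerol with ethanol, where 43 genes were higher in YJM975.

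The 5 stalk genes were lower in YJM975 in glucose and in glycerol by limma, and in ethanol none was higher and only RPP2A was lower. RPP0 anchors the stalk to the rRNA, and its levels in RM11 were 299.5 ± 17.5 TPM (glucose), 594 ± 17.8 TPM (glycerol) and 452 ± 37.9 TPM (ethanol). In YJM975 they were 74.1 ± 2.43, 288 ± 11.7 and 498 ± 40.1 TPM in the same order. RPP1A, RPP1B, RPP2A and RPP2B encode the acidic proteins that bind RPP0 as dimers and contact the elongation factors. In glucose the strain difference of RPP2A was -3.12 ± 0.06, while those of RPP1A, RPP1B and RPP2B lay between -1.66 and -1.83, near the -2.0 ± 0.07 of RPP0. RPP2A stood at 418, 446 and 429.8 TPM in the RM11 libraries, against 44.8, 50.1 and 51.7 TPM in those of YJM975 in glucose, without overlap. In glycerol the 5 stalk genes differed by -0.98 to -1.55. In ethanol RPP0 differed by 0.14 ± 0.07, RPP1A by 0.13 ± 0.06, RPP1B by 0.00 ± 0.06 and RPP2B by 0.04 ± 0.09, and none of these passed the test (limma adjusted p from 0.0623 to 0.990).

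The members without a paralog cover the main functional sites, and their levels are free of the split between copies. RPL3, near the peptidyl transferase centre, stood at 374, 385 and 373 TPM in the RM11 libraries, against 33.7, 33.1 and 40.5 TPM in those of YJM975 in glucose (-3.37 ± 0.07), again without overlap. RPL25, at the tunnel exit where the signal recognition particle binds, differed by -1.81 ± 0.06 in glucose and -1.43 ± 0.06 in glycerol. RPL28, at which the antibiotic cycloheximide acts, differed by -1.94 ± 0.08 and -1.27 ± 0.08. RPL30, which binds its own pre-mRNA and slows its splicing, differed by -2.69 ± 0.10 and -1.40 ± 0.10. RPL32, RPL38 and RPL39 differed by -1.76 ± 0.05, -1.45 ± 0.08 and -2.06 ± 0.09 in glucose. RPL10 differed least of the 11 in glucose and in glycerol (-1.13 ± 0.07 and -0.46 ± 0.07) and was 0.47 ± 0.07 in ethanol.

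Between media in RM11, the large subunit genes were highest in glycerol. From glucose to glycerol 79 of the 81 rose by limma and none fell, against 53% of all genes tested called higher and 28.7% lower, with a median of 0.99 (0.23 for all genes). RPL31B rose most, from 176, 193 and 179 to 751, 697 and 655 TPM (1.93 ± 0.09), followed by RPL8A (1.59 ± 0.10), RPL8B (1.58 ± 0.09) and RPL29 (1.58 ± 0.13). No library of the glucose group reached the glycerol values of RPL31B. RPL18B (-0.11 ± 0.06) and RPL41B (0.28 ± 0.13) did not pass. RPL18B was at 192, 208 and 189 TPM in glucose and 173, 195 and 177 TPM in glycerol, with overlapping libraries.

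From glucose to ethanol in RM11, 73 genes rose and 3 fell by limma, against 32% of all genes tested called higher and 37.4% lower, with a median of 0.58 (-0.03 for all genes). RPL29 rose by 1.31 ± 0.13, RPL31B by 1.28 ± 0.09, RPL8B by 1.22 ± 0.09 and RPL24A, a nonessential protein that joins in the cytoplasm, by 1.16 ± 0.06. The 3 that fell were RPL15B (-0.39 ± 0.06), RPL18B (-0.31 ± 0.06) and RPL9B (-0.24 ± 0.05). In RM11 between glycerol and ethanol, 68 fell and 1 rose, against 54.1% of all genes tested called lower and 21.4% higher, with a median of -0.43 (-0.23 for all genes). RPL9A fell from 134, 139 and 131 to 60.2, 55.6 and 55.0 TPM (-1.23 ± 0.07), and the changes of RPL3, RPL22A and RPL22B were -1.03 ± 0.07, -0.95 ± 0.13 and -0.87 ± 0.07. With median centring 32 genes fell and 8 rose. The rise of RPL41B (0.32 ± 0.13, limma adjusted p = 0.0411) turned to -0.09 when a trend with coding length was removed.

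In YJM975 the genes rose from glucose over glycerol to ethanol. From glucose to glycerol 75 rose and 3 fell by limma, against 41.2% of all genes tested called higher and 42.6% called lower, with a median of 1.65 (-0.02 for all genes). RPL8A rose from 8.81, 8.88 and 13 to 139.6, 130.0 and 134 TPM (3.61 ± 0.10), RPL3 by 3.38 ± 0.07 and RPL5 by 3.38 ± 0.07. The 3 that fell were RPL15B (-0.60 ± 0.06), RPL9A (-0.32 ± 0.07) and RPL35B (-0.27 ± 0.08). RPL15B went from 55.8, 53.5 and 53.8 to 37.4, 32.9 and 36.4 TPM, without overlap.

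From glucose to ethanol in YJM975, 80 of the 81 genes rose by limma, against 56.5% of all genes tested called higher and 30.3% lower. Of the 81 genes 76 rose by 2-fold or more, a limit for which no share of all genes is given. The median was 2.71 (0.35 for all genes), the largest of the 6 comparisons between media. RPL8A rose to 234, 252 and 252 TPM (4.48 ± 0.10), RPL15A by 4.45 ± 0.09 and RPL22A by 4.32 ± 0.13. Only RPL15B did not pass (0.11 ± 0.06, limma adjusted p = 0.0872), so the copies of RPL15 lay near opposite ends of the list. From glycerol to ethanol in YJM975 all 81 rose by limma, against 64% of all genes tested called higher and 13.1% lower, with a median of 0.98 (0.36 for all genes). The largest rises were those of B copies, with RPL33B from 164, 140.4 and 174 to 790.0, 853 and 849 TPM (2.38 ± 0.09), RPL6B at 1.93 ± 0.11, RPL22B at 1.78 ± 0.07 and RPL21B at 1.58 ± 0.06. These comparisons share their glucose, glycerol and ethanol libraries within a strain.

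The responses to the medium differed between the strains by a test of the difference itself, the interaction of strain and medium. From glucose to glycerol YJM975 rose more than RM11 for 62 genes and less for 9, against 31.5% of all genes tested called higher and 46.7% lower. RPL2A, whose protein supports the peptidyl transferase centre, differed by 2.33 ± 0.08, while RPL9A differed by -1.80 ± 0.10 and RPL35B by -1.12 ± 0.11. From glucose to ethanol the difference was positive for all 81, against 56.5% of all genes tested (20.2% negative), with RPL3 at 3.83 ± 0.10 and RPL22A at 3.80 ± 0.18. From glycerol to ethanol it was positive for 80, against 65.4% of all genes tested (15.4% negative), with RPL22B at 2.65 ± 0.10 and RPL6B at 2.58 ± 0.15. RPL41B did not pass (0.30 ± 0.19).

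Adding the TPM of A and B gives the message for each of the 46 proteins and removes the split between copies. In glucose and in glycerol all 46 sums were lower in YJM975 by limma, with 83% and 86.1% of all 6248 genes or pair sums called in either direction. The range in glucose narrowed to between -3.58 (RPL29) and -0.995 (RPL41), so the genes that did not pass the test, RPL15B and RPL35B, belonged to proteins whose summed message did. In ethanol 29 sums were higher, 16 did not pass and RPL29 was lower, with 48.1% of all genes or sums called in either direction. RPL10 (0.47 ± 0.07), RPL22 (0.47 ± 0.09) and RPL3 (0.46 ± 0.07) were highest there. Without the second ethanol library of RM11 15 sums were higher, and without the second of YJM975 18. Averaged over the media all 46 sums were lower in YJM975 (84.6% of all genes or sums called in either direction).

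Between media, all 46 sums rose from glucose to glycerol in RM11 (81.6% of all genes or sums called) and in YJM975 (83.7%), and in YJM975 also from glucose to ethanol (86.7%) and from glycerol to ethanol (76.9%). Each share in brackets here counts calls in either direction, so it is no measure for rises or falls alone. The shares of single genes called higher and lower are given with each comparison above. In RM11 43 sums rose from glucose to ethanol (69.2%), while RPL9 fell (-0.14 ± 0.05, limma adjusted p = 0.0117) and RPL28 and RPL37 did not pass. There 42 sums fell from glycerol to ethanol (75.5%), and RPL10, RPL29, RPL39 and RPL41 did not pass. The strains differed in the glycerol response for 40 sums (78.2%) and in the ethanol response for all 46, whether counted from glucose (76.5%) or from glycerol (80.6%), each time with the greater rise in YJM975.

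The sums kept closer proportions in some groups than in others. The ratio of the 90th to the 10th percentile of the 46 sums for RM11 was 3.26 ± 0.112 (glucose), 3.23 ± 0.170 (glycerol) and 4.05 ± 0.234 (ethanol), and 3.80 ± 0.0463 and 3.72 ± 0.0535 in YJM975 in glycerol and ethanol. In YJM975 in glucose it was 8.03 ± 0.524, above all other groups without overlap. RPL41 held 1480.5 ± 181 TPM there, and RPL8, a protein that binds early in assembly, held 24.9 ± 3.85 TPM, against 2985 ± 666 and 216 ± 8.52 TPM in RM11. TPM divides by length, and over the 81 genes the strain difference in glucose correlated with coding length with r = -0.31 (r = -0.01 over 5769 genes with a length). For the strain difference in glycerol and ethanol r was -0.03 and 0.35 over the 81 genes (-0.09 and 0.09 over the 5769). For the strain difference of the glucose to ethanol change it was 0.42 (0.06 over the 5769). The part of length in the wider spread was not tested.

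**Figure D3:**
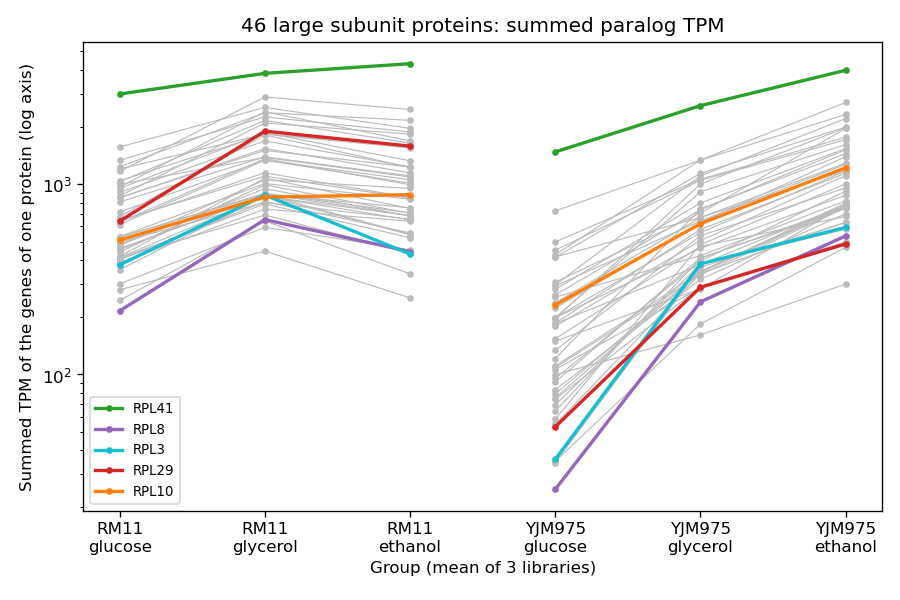
Summed TPM of the genes of each of the 46 proteins (vertical log axis) in the 6 groups, as means of 3 libraries, with RPL41, RPL8, RPL3, RPL29 and RPL10 in colour. The lines spread widest in YJM975 in glucose, and RPL29 ranks far lower among the proteins in the YJM975 groups than in RM11 in glycerol and ethanol.

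Within pairs the balance of A and B was seldom even. It is given as the log2 ratio of A to B (1 TPM added to each), tested by limma over the 61 pairs of the table named A and B, of which 35 are large subunit pairs. Another 24 are small subunit pairs and 2 are other pairs. Shares of the 61 therefore describe ribosomal protein pairs, the 35 included, and not paralogs in general. A and B differed in 33 of 35 pairs in RM11 in glucose (93.4% of the 61), 28 in glycerol (82%) and 32 in ethanol (90.2%). In YJM975 they differed in 33 pairs in glucose (96.7%), 33 in glycerol (93.4%) and 34 in ethanol (93.4%). RPL36 was the most one-sided pair towards B, with a mean log2 ratio of -2.94 over the 18 libraries, and RPL15 the most one-sided towards A at 2.57. RPL1, which forms the mobile stalk at the exit site of tRNA, followed at -1.91, then RPL9 at -1.77, RPL6 at 1.26 and RPL16 at -1.19. RPL27 (0.10), RPL34 (-0.10) and RPL42 (-0.12) were the most even.

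The leading copy was the same in every group in 15 pairs. A led throughout in 8 (RPL6, RPL7, RPL17, RPL24, RPL31, RPL33, RPL40 and RPP1) and B in 7 (RPL1, RPL4, RPL9, RPL13, RPL16, RPL36 and RPL37). In 15 other pairs the leading copy changed between groups, each lead being past the test, and in 5 pairs it never changed but was not called in some group. Among the 15, RPL2, RPL8, RPL11, RPL14, RPL18, RPL35 and RPL42 share 95% or more of their bases, so their split is less certain. Some leads were small. RPL2A led by 1.05-fold in YJM975 in glycerol (limma adjusted p = 0.0342) and RPL34A by 1.08-fold in RM11 in ethanol (limma adjusted p = 0.0382). In 7 of the 15 that changed, the change lay in YJM975 in glucose alone, among them RPL11, RPL15, RPL20, RPL22, RPL23 and RPL35. RPL11, RPL15, RPL22 and RPL35 were led there by B and elsewhere by A, and RPL20 and RPL23 the reverse. No such count over all 61 pairs is given, so whether these changes are particular to large subunit pairs was not tested.

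**Figure D4:**
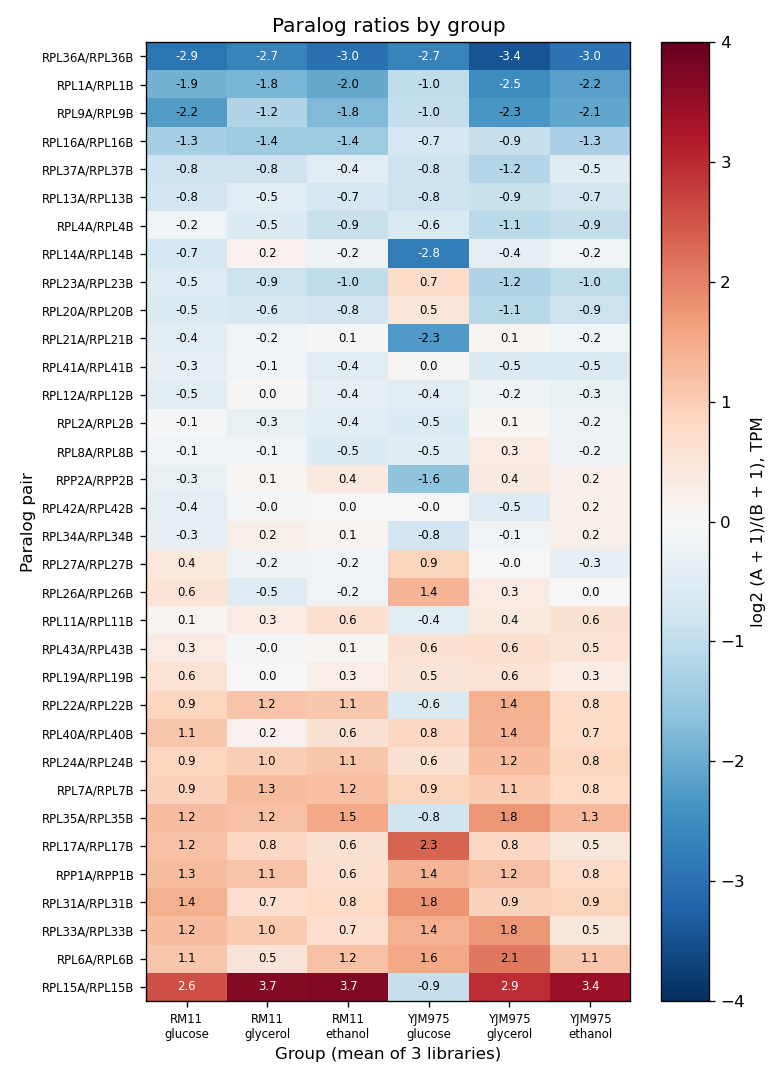
Mean log2 ratio of A to B (1 TPM added) of 34 of the 35 pairs (rows, ordered by their mean over the groups) in the 6 groups (columns, 3 libraries each), with red for A above B and blue for B above A. The column of YJM975 in glucose departs most from the others, as in the rows of RPL15, RPL14 and RPL21.

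Between the strains in glucose, the ratio shifted in 28 of the 35 pairs, towards A in YJM975 in 14 and towards B in 14, against 82% of the 61 pairs. RPL15 shifted most, by -3.50 ± 0.10 (limma adjusted p = 9.81e-18). RPL15A held 86.0 ± 0.333% of the pair in RM11 and 34.4 ± 4.48% in YJM975, and 88.8 ± 0.375% and 91.6 ± 0.238% in YJM975 in glycerol and ethanol. The copies differ at 42 bases, including the 10 of the window shown above, and encode proteins that differ at 2 residues. RPL14 shifted by -2.08 ± 0.07, with RPL14A at 191, 195 and 217 TPM in the RM11 libraries, against 30.2, 30.6 and 34.5 TPM in those of YJM975. RPL14B was at 310.1, 328 and 339 and 242, 215 and 214 TPM. RPL35 shifted by -2.02 ± 0.06 and RPL21 by -1.82 ± 0.07.

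The shifts towards A were smaller. RPL9, near the base of the factor-binding stalk, shifted by 1.26 ± 0.09, RPL23 by 1.25 ± 0.06 and RPL17, of the tunnel exit, by 1.17 ± 0.05. RPL23A held 41.2 ± 1.22% of its pair in RM11 and 62.6 ± 0.212% in YJM975. Both copies of RPL23 encode the same protein, as do those of RPL35, whose coding sequences differ at 3 bases in all. The split of reads for RPL35 therefore rests on few positions outside the untranslated parts.

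**Figure D5:**
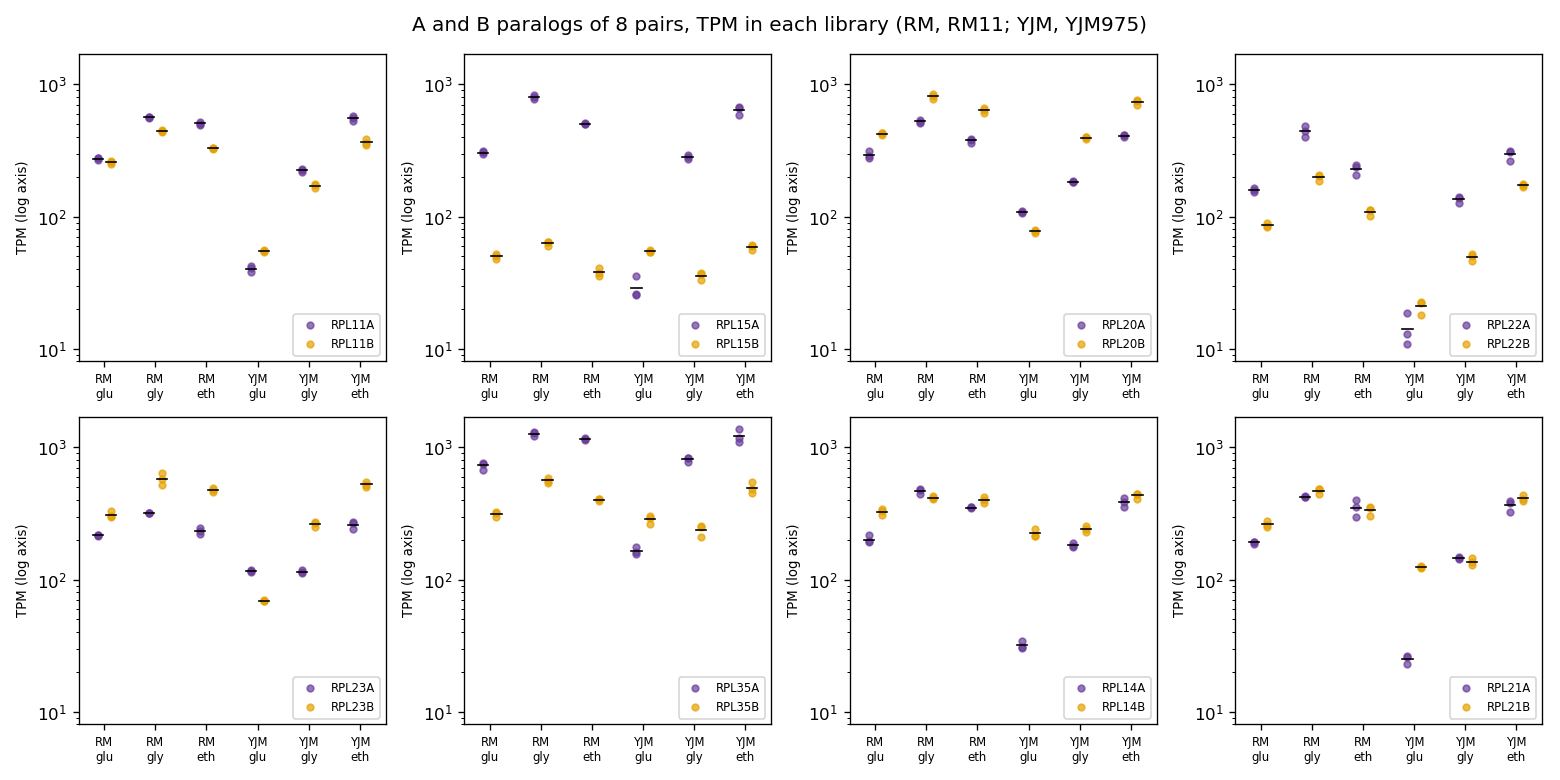
TPM of both copies in each library (points; short bars are means of 3) for 8 pairs in the 6 groups, on log axes; 6 pairs whose lead changed in YJM975 in glucose alone, with RPL14 and RPL21. In that group RPL15A, RPL14A and RPL21A lie far below RM11 while RPL15B does not.

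In glycerol the ratio differed between strains in 32 pairs, 16 each way (85.2% of the 61). RPL6 shifted towards A in YJM975 by 1.61 ± 0.10, with RPL6A at 58.7 ± 0.717% of the pair in RM11 and 81.4 ± 2.31% in YJM975. RPL40, whose genes encode ubiquitin fused to the ribosomal protein, shifted by 1.19 ± 0.07 and RPL26 by 0.85 ± 0.06. RPL9 shifted towards B by -1.12 ± 0.09, the opposite direction to glucose, with RPL36 at -0.77 ± 0.08 and RPL15 at -0.72 ± 0.10. In ethanol 14 pairs differed, 6 towards A and 8 towards B (32.8% of the 61), among them RPL43 at 0.45 ± 0.08 and RPL7 at -0.41 ± 0.06. Leaving out the third library of either strain in ethanol left 6 pairs called, and leaving out the second of RM11 left 8. Averaged over the media 27 pairs differed (80.3% of the 61).

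The ratios differed between the media as labelled in both strains, at counts near the shares of the 61 pairs. In comparisons with glucose, run and medium cannot be told apart. In RM11 27 pairs changed from glucose to glycerol (75.4% of the 61), 29 from glucose to ethanol (78.7%) and 26 from glycerol to ethanol (73.8%). RPL15 moved towards A by 1.08 ± 0.10 in glycerol and 1.12 ± 0.10 in ethanol, and RPL26 towards B by -1.08 ± 0.06 and -0.71 ± 0.06. Between glycerol and ethanol RPL6 moved towards A by 0.67 ± 0.10 and RPL9 towards B by -0.57 ± 0.09. In YJM975 32 pairs changed from glucose to glycerol (95.1%), 30 from glucose to ethanol (86.9%) and 30 from glycerol to ethanol (82%).

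In YJM975, from glucose, RPL15 moved towards A by 3.86 ± 0.10 in glycerol and 4.34 ± 0.10 in ethanol and RPL14 by 2.37 ± 0.07 and 2.60 ± 0.07. RPL23 moved towards B by -1.93 ± 0.06 and -1.75 ± 0.06 and RPL17 by -1.51 ± 0.05 and -1.88 ± 0.05. From glycerol to ethanol RPL33 moved towards B by -1.32 ± 0.08 and RPL42, whose protein also bears on cycloheximide sensitivity, towards A by 0.71 ± 0.05. The strains differed in these moves in 28 pairs from glucose to glycerol (83.6% of the 61), 27 from glucose to ethanol (83.6%) and 30 from glycerol to ethanol (78.7%). The range of the group means of a ratio had a median of 1.21 over the 24 pairs under 95% identity and 0.90 over the 11 others.

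The small subunit genes give a measure of how particular these values are. Their 56 genes (RPS) had median strain differences of -1.80, -1.24 and 0.14 in glucose, glycerol and ethanol, beside -1.96, -1.26 and 0.17 for the large subunit. The summed TPM of the large subunit genes over that of the small was 1.01 ± 0.0175, 1.05 ± 0.0107 and 1.03 ± 0.00729 in RM11 and 0.539 ± 0.00645, 1.00 ± 0.00796 and 1.00 ± 0.0243 in YJM975. RPS30A stood at 6937 ± 295 TPM in YJM975 in glucose and at group means of 4479.6 ± 125 to 6142 ± 102 TPM in the others. Without RPS30A the ratio was still lowest in YJM975 in glucose, at 0.859 ± 0.00782, beside group means of 1.13 to 1.19 in the others. Without all RPS30 and RPS27 genes, chosen after their values were seen, the ratio was 1.38 ± 0.0239 in that group and 1.30 to 1.36 as group means in the others. Members with and without a coding intron had medians of -1.87 and -2.10 in glucose, -1.28 and -1.22 in glycerol and 0.17 and 0.14 in ethanol.

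Lists of genes that act on the large subunit were also described, with 12 regulators of ribosomal protein genes and 18 chaperones, assembly and export factors. In glucose 15 of the 18 assembly partners were lower in YJM975 and 1 higher by limma, with a median of -0.67, where 60.7% of all genes tested were lower and 22.5% higher. YVH1, a phosphatase that helps to release MRT4 from the subunit, differed by -2.57 ± 0.07 and RRB1, the chaperone of newly made RPL3, by -1.99 ± 0.11. Of the 12 regulators 7 were higher and 4 lower. ABF1, which binds promoters of some of these genes, differed by -1.94 ± 0.06 and DOT6, a repressor of ribosome biogenesis genes, by 1.30 ± 0.13. Of the regulators named at the start, RAP1 (0.55 ± 0.07) and FHL1 (0.17 ± 0.06) were higher in YJM975, while IFH1 (-0.22 ± 0.06) was lower. SFP1 did not pass the test (0.09 ± 0.09, limma adjusted p = 0.329).

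In glycerol all 18 partners and 10 of the 12 regulators were lower in YJM975, with 2 regulators higher, where 70.1% of all genes tested were lower and 16.2% higher. MRT4, which holds the place of RPP0 during assembly, stood at 155, 161 and 154 TPM in RM11 and 9.09, 10.4 and 9.38 TPM in YJM975 (-3.89 ± 0.07). ARX1, of nuclear export, differed by -2.92 ± 0.08 and SQT1, the chaperone of RPL10, by -2.79 ± 0.09. The partner median of -1.94 lay below the -1.26 of the members. Of the regulators, UTP22, of a complex that binds Ifh1, differed by -2.49 ± 0.07, TOD6, a repressor of ribosome biogenesis genes like DOT6, by -2.42 ± 0.08, IFH1, the coactivator at these promoters, by -1.97 ± 0.06 and FHL1, which recruits it, by -1.33 ± 0.06. In ethanol 16 partners and 8 regulators were higher in YJM975 and none was lower, where 26.8% of all genes tested were higher and 21.2% lower, with MRT4 at 1.20 ± 0.07, SYO1, the carrier of RPL5 and RPL11, at 0.99 ± 0.06, IFH1 at 0.62 ± 0.06, SFP1 at 0.57 ± 0.09 and TOD6 at 0.53 ± 0.08.

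Between media in RM11, all 18 partners rose from glucose to glycerol (53% of all genes tested rose) and all 18 fell from glycerol to ethanol (54.1% fell). From glucose to ethanol in RM11 partners moved both ways, a comparison for which no count is given. SYO1 fell there from 9.91 ± 0.174 to 5.17 ± 0.162 TPM and SQT1 from 17.9 ± 0.937 to 15.4 ± 0.318 TPM. RRB1 rose from 24.3 ± 1.43 to 29.7 ± 1.75 TPM (SD). From glucose to glycerol in YJM975 11 partners fell and 7 rose, where 42.6% of all genes tested fell and 41.2% rose, with MRT4 at -1.26 ± 0.07 and YVH1 at 1.55 ± 0.07. From glucose to ethanol in YJM975 15 partners rose and none fell, where 56.5% of all genes tested rose and 30.3% fell, with RRB1 at 3.15 ± 0.11. The test of a difference between partners and members was not made.

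Promoters of the members were searched in R64 for a motif of Rap1 (ACACCC, any 2 bases, ACA) and for one of Abf1 (TCA, any 6 bases, ACG), on both strands in the 500 bases before the start codon. The Rap1 motif was found for 11 of the 81 genes (13.6%), for 14.3% of the small subunit genes and for 0.947% of 5915 genes of the assembly. RPL14A held a match and RPL14B, RPL15A, RPL15B, RPL35A and RPL35B none, which says only that these letters are not in that window. The match of RPL14A is shown in capitals, in the stretch from 421 to 392 bases before the start codon. Whether matches go with the strain differences of the members was not tested.
RPL14A upstream: agcgcaaatACACCCATACActatttttac
The Abf1 motif was found for 12 of the 81 (14.8%), beside 22.7% of all genes.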

How the data were processed

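Transcript levels of 18 libraries were used, as TPM in 1 table that the authors deposited, a level per length scaled to a fixed total. Kallisto is named per the submitters' processing notes. For its version, transcript sequences and genome build, the sources used here give none. TPM keeps no depth, so depth and counting error are unknown, and each library sums to 1000000 TPM. Groups came from the labels, and the triplicates are biological per the series' design. No column was left unused.

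Transcripts were matched by locus name to RefSeq R64, where 5929 found a locus and 683 none, which gave symbols, coding sequences and the 500 bases before each start codon. EFL1 of the partner list is named RIA1 there. In that annotation only small noncoding RNAs lie within members (RPL7A and RPL7B), and transcripts absent from it were not searched for overlaps. The 6309 genes whose mean reached 1 TPM were tested in R 4.3.3 with limma 3.58.1, after log2(TPM + 1), in a single model of the 6 groups with 12 residual degrees of freedom, moderated variances with a trend, and Benjamini-Hochberg adjustment over all genes within each of 13 contrasts. The threshold for a call was 0.05 on the adjusted p. Changes are log2 differences on this scale with SE and understate those of low genes. Log2 ratios over 61 A/B pairs and pair sums were fitted likewise. In simulated data for the glucose strain contrast over 6309 genes, 65 of 67 genes changed 1.5-fold were called (97%), all 67 changed 2-fold and all 66 changed 4-fold, with 13 false calls among 6109. Over 61 pairs all 10 changed 1.5-fold were called, with 1 false call among 41. The simulation did not rescale to a fixed total. Replicates correlated with r of 0.9945 to 0.9977 across genes, and no libraries were identical (0 pairs).

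The members and lists were chosen with earlier results of these data known. Genes are named as the 4 called members with the largest rise and fall per contrast, the 5 highest and 5 lowest members, the stalk genes, those without a paralog, the 3 pairs at either end per contrast and the 6 most and 3 least uneven, and up to 4 of each pathway list. Other copies of a named pair and members that did not pass were added after their values were seen. So were the strain differences of RAP1, FHL1, IFH1 and SFP1 in glucose. The same holds for SYO1, SQT1 and RRB1 from glucose to ethanol in RM11 and for the small leads of RPL2 and RPL34. The values of 1 member and its pair ratio are counted but not reported here. Alternatives were pseudocounts of 0.1 and 5, other filters, quantile normalization, median centring, rescaling that left out the 50 most abundant transcripts, other fits, a replicate block, each library left out, and pairs under 95% identity. Removal of a length trend and fits without the glucose libraries were added after the data were seen. Python 3.11.15, pandas 2.3.3, NumPy 2.4.6, Biopython 1.88 and matplotlib 3.10.9 were used.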

Additional observations from a re-analysis of the deposited data

Results flagged for a closer look

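The responses of YJM975 and RM11 to the medium differed by the limma interaction test for every value below, each given as the YJM975 change minus the RM11 change on the log2 scale, with adjusted p from 1.39e-05 down to 3.37e-16. From glucose to glycerol, RPL2A (2.33) rose more in YJM975, and RPL9A (-1.80) and RPL35B (-1.12) rose in RM11 while they fell in YJM975. The A to B ratio of RPL15 differed by 2.78 and that of RPL35 by 2.62, and the ratios of RPL9 and RPL1 by -2.38 and -1.60.

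From glucose to ethanol, RPL3 (3.83) and RPL22A (3.80) rose more in YJM975. The ratio of RPL15 differed by 3.22, and those of RPL9 and RPL17 by -1.57 and -1.32. Between glycerol and ethanol, RPL22B (2.65) and RPL6B (2.58) rose in YJM975 and fell in RM11. The ratio of RPL9 differed by 0.81, and those of RPL6 and RPL40 by -1.68 and -1.08. The values with glucose rest on the libraries whose medium label goes against FBP1 in both strains and against HXK2 and ICL1 in RM11.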

How the results depend on the processing

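Of the counts and shares recomputed under other settings, 1239 values stayed within 1.5 times the value given (for shares, within 1 SD) and 37 did not. With paralogs summed the counts were over 46 proteins instead of 81 genes, and 46 were called in 9 contrasts, 43 from glucose to ethanol and 42 from glycerol to ethanol in RM11, and 40 for the strain difference of the glycerol response. The strain difference in ethanol was the least stable: 24 genes were higher with median centring, 28 with rescaling and 27 to 47 with a library left out; of the sums, 9, 13 and 15 to 33, and 17 in a fit of the groups compared; of the pairs, 6 to 17. From glycerol to ethanol in RM11, median centring left 32 genes and 13 sums. Over pairs under 95% identity alone, 18 ratios were called between strains in glucose, 7 in ethanol, 21 from glucose to glycerol in YJM975, 18 and 17 from glucose and from glycerol to ethanol in RM11, and 16 for the strain difference of the ethanol response, as fewer pairs were tested. Without the 50 most abundant transcripts the shares were 5.39%, 9.71% and 8.42% in RM11 and 1.76%, 5.59% and 8.83% in YJM975, in the order glucose, glycerol, ethanol, and the strains then overlapped in ethanol. RPL41B from glycerol to ethanol in RM11 turned to -0.091 with the length trend removed. For these the cause was not tested, except where fewer pairs or proteins enter. Among the named genes and pairs a call was lost 29 times, for RPL43B and RPP2A and the ratios of RPL8, RPL9 and RPL15 between strains in ethanol, RPL35B from glucose to glycerol in YJM975 and RPL41B from glycerol to ethanol in RM11. Same-numbered libraries did not deviate together (4 of 45 correlations over 0.1), and with the replicate block the strain counts were 79 in glucose, 81 in glycerol and 43 in ethanol, and no count of calls moved by over 1.5 times.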
